A study of Mus musculus with 7 samples.

Results

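The 5 ligand genes of the vascular endothelial growth factor (VEGF) family, namely Pgf, Vegfa, Vegfb, Vegfc and Figf, were followed in RNA sequencing counts from lymphatic endothelial cells of the mouse ear. Figf is the older symbol of Vegfd, which encodes VEGF-D. The members were chosen by gene symbol, and all 5 were found among the 26583 genes of the count table. The tested libraries were 4 from BPC melanomas of the ear pinna, from mice labelled BrafCA/+; pten l/l; Cre+, and 3 from naive skin of the ear pinna. Naive replicates 1 and 3 came from mice labelled BrafCA/+; pten l/l; Cre-, and naive replicate 2 combined that genotype with Braf+/+;pten l/l Cre+. The pten l/l alleles were therefore shared by both groups. Tumour replicates 1 and 2 were male and 3 and 4 female, and naive replicate 1 held both sexes, 2 was female and 3 was male. The labels used here state neither ages nor the driver of Cre, nor how cells were isolated or how many mice a library held. Naive replicates 1 and 2 combined sexes or genotypes, so each of them held cells of more than 1 mouse. Whether the other libraries were pooled is not stated, so the spread within the 2 groups may not be of the same kind. The p-values thus measure library-to-library spread, which may be technical in part.

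VEGF ligands are secreted dimers that bind receptor tyrosine kinases on endothelial cells. VEGF-A, from Vegfa, acts through the receptors encoded by Kdr and Flt1. Placental growth factor, from Pgf, and VEGF-B, from Vegfb, bind the Flt1 product but not the Kdr product. VEGF-C and VEGF-D bind the Flt4 product, the receptor that drives growth of lymphatic vessels. VEGF-C cleaved by proteases also binds the Kdr product, which mouse VEGF-D is not known to do. Neuropilins, from Nrp1 and Nrp2, serve as co-receptors. In skin and tumours these ligands are made by several cell types, and endothelial cells can make some of them themselves.

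Pgf was the ligand gene that changed: it was 5.53-fold higher in tumour than in naive skin, with a 95% interval of 3.96 to 7.70. Vegfa and Vegfb were expressed in every library and did not pass the test. Vegfc and Figf were at or near 0 in most libraries. Of the 5 members, 4 passed the filter on low counts and were tested and 1 of these passed the test, beside 1.7% of the 13453 genes tested (edgeR's quasi-likelihood test, threshold of 0.05 on the Benjamini-Hochberg adjusted p). Higher genes made up 0.899% of those tested and lower genes 0.803%. The groups did not overlap for Pgf alone among the tested members, while they did not overlap for 18% of all genes tested, 9.57% with the tumour libraries higher and 8.46% with them lower.

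The sequences before the starts of the 3 well expressed ligand genes are shown because Pgf changed and Vegfa and Vegfb did not pass. Each is the run of 250 bases up to a RefSeq start in GRCm38.p6, on the strand of the gene (minus for all 3), 5′ to 3′. The windows are chr12:85177314-85177563 for Pgf, chr17:46032378-46032627 for Vegfa and chr19:6987652-6987901 for Vegfb. In the GENCODE M21 annotation the Pgf gene extends to 85177790, so its window lies inside the annotated gene. Capitals mark matches on either strand to the core of the hypoxia response element, ACGTG or GCGTG, or to the metal response element, TGCACNC or TGCGCNC.
Pgf: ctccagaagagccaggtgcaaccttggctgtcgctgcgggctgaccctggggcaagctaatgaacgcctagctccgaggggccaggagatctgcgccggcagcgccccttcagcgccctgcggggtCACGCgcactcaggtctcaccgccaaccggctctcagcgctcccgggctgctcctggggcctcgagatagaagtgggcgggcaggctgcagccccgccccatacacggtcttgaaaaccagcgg
Vegfa: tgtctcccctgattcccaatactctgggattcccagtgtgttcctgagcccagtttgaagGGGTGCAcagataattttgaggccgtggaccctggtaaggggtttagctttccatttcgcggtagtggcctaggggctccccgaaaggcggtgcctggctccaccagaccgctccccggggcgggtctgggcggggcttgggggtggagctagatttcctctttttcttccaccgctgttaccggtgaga
Vegfb: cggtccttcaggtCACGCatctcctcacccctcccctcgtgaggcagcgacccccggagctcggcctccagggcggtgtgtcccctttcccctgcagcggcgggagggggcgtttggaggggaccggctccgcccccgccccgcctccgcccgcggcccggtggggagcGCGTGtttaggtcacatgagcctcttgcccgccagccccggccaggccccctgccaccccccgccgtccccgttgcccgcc
The hypoxia core matched once in the Pgf window, 124 bases before the start, and in 2 places in the Vegfb window, 237 and 81 bases before the start. It matched nowhere in these 250 bases for Vegfa, Vegfc or Figf. Bases farther upstream were not searched, so sites there would be missed for any of the genes. The Figf window, chrX:164373272-164373521, overlaps the annotated gene, which starts at 164373378. The core is found in 38.6% of 32851 such windows of mouse genes, so a match is common. The metal element was found in 21.4% of them and matched once for Vegfa, 190 bases before the start. Of the 250 bases, G and C made up 68.4% for Pgf, 59.2% for Vegfa, 76.4% for Vegfb, 71.6% for Vegfc and 42.4% for Figf, with a median of 52.4% over all windows. RefSeq lists a further start for Pgf and for Vegfa, whose windows held 0 and 2 hypoxia cores. Both of these further windows lie inside the annotated gene, at chr12:85175983-85176232 for Pgf and chr17:46025164-46025413 for Vegfa. Whether they act as promoters was not tested. The motif matches describe the letters only.

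Total counts were 52940832 to 62947508 in the tumour libraries and 59735153 to 63032175 in the naive libraries. The floor was 3 counts, which correspond to 0.0476 to 0.0567 CPM (counts scaled to 1000000 per library) by total counts alone. All other CPM also use the TMM factors, so on that scale 3 counts take slightly different values. Between 13441 and 14670 genes had a count. The kit does not mark strand, but in GENCODE M21 no other annotated gene overlapped a member on either strand. The labelled cell type was checked against 10 genes of lymphatic endothelial identity, including Prox1, Lyve1, Pdpn and Flt4. All 10 were present, with a summed level of 10600 to 14098 CPM in tumour and 12173 to 14915 CPM in naive libraries, and 1 of the 10 passed the test, the transcription factor gene Sox18, at 134 ± 7.55 CPM in tumour (SD, n = 4) and 70.9 ± 14.5 CPM in naive skin (SD, n = 3; edgeR adjusted p = 0.0412). That 1 call stands beside 1.7% of all genes tested. The Sox18 call was lost whichever library was left out (edgeR adjusted p = 0.0696 to 0.112). A tag in the sample descriptions, read as the sequencing lane, put tumour replicates 1, 2 and 4 on lane 6, naive replicates 1 and 2 on lane 7, and tumour replicate 3 and naive replicate 3 on lane 8.

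Pgf encodes placental growth factor, a ligand of the Flt1 product that also binds neuropilin-1, and lies on chromosome 12 from 85166635 to 85177790 on the minus strand (GRCm38). It had 9567, 12044, 17136 and 10970 counts in tumour replicates 1 to 4, against 2271, 2104 and 2008 counts in naive replicates 1 to 3. Scaled to library size, that was 158, 197, 274 and 183 CPM in the tumour libraries and 39.0, 36.5 and 34.7 CPM in the naive libraries. All 4 tumour libraries stood far above all 3 naive libraries, tumour replicate 3 was highest, and the naive libraries lay close together. The mean was 203 ± 49.6 CPM in tumour (SD, n = 4) and 36.8 ± 2.16 CPM in naive skin (SD, n = 3). The log2 fold change was thus 2.47, with an SE of 0.21 (edgeR adjusted p = 0.00468). By p-value Pgf ranked 3 among the 13453 genes tested. Within the tumour group the highest library was 1.73 times the lowest.

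When any 1 of the 7 libraries was left out, Pgf kept its call, with log2 fold changes of 2.29 to 2.57 and edgeR adjusted p-values of 0.00268 to 0.0385. With lane as a term it was lost (log2 fold change 2.98, edgeR adjusted p = 0.144, with 0 genes called in all). Lanes 6 and 7 each hold 1 group only, so that fit rests on the 2 libraries of lane 8, where the log2 difference between tumour replicate 3 and naive replicate 3 was 2.98.

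**Figure D1:**
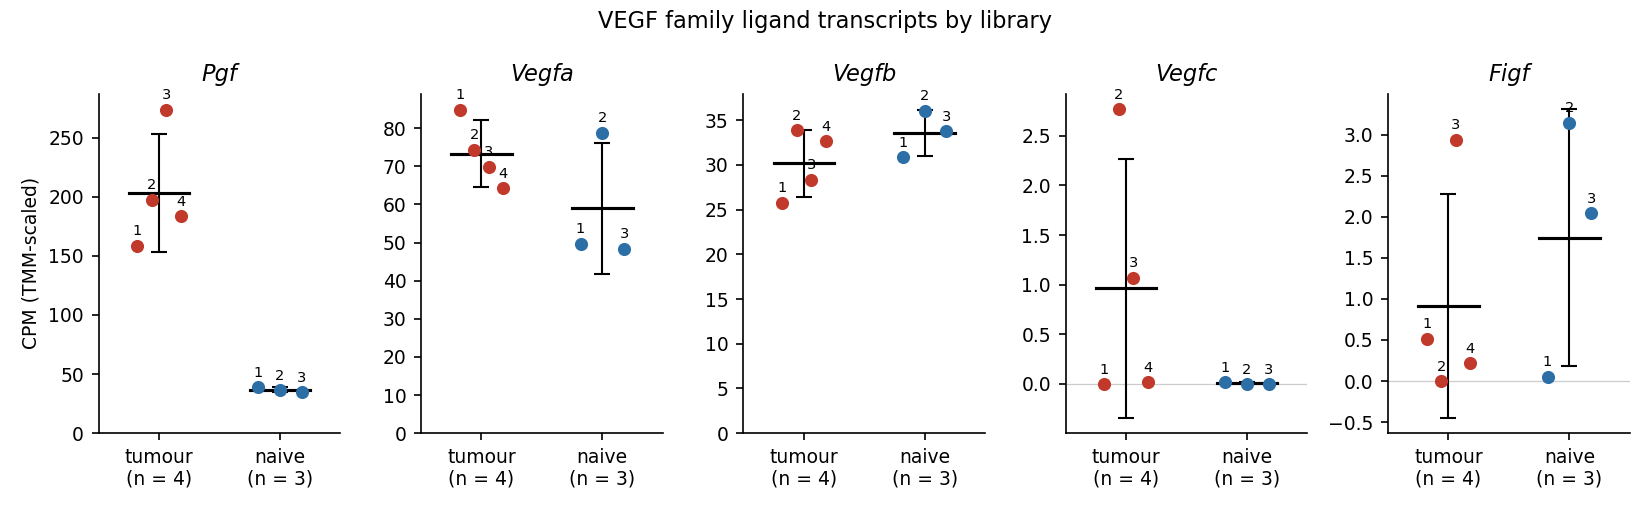
Level of each VEGF ligand transcript in CPM (vertical axes, one scale per gene) in the 4 tumour libraries (red, left) and the 3 naive libraries (blue, right); digits are replicate numbers, the thick line is the mean and the bar its SD. For Pgf the tumour libraries lie between 158 and 274 CPM and the naive libraries between 34.7 and 39.0 CPM, while the groups overlap for the other 4 genes.

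Vegfa encodes VEGF-A, the main growth factor of blood vessels, and lies on chromosome 17 from 46016993 to 46032369. It was at 84.9, 74.4, 69.9 and 64.3 CPM in tumour replicates 1 to 4, against 49.7, 78.8 and 48.3 CPM in naive replicates 1 to 3. The groups overlapped through naive replicate 2, the library of mixed genotype, which stood above 3 of the 4 tumour libraries. The mean was 73.4 ± 8.72 CPM in tumour (SD, n = 4) and 59.0 ± 17.2 CPM in naive skin (SD, n = 3). The log2 fold change was 0.31 with a 95% interval of -0.18 to 0.81, which corresponds to a fold of 0.882 to 1.75 (edgeR adjusted p = 0.543). Without naive replicate 2 it was 0.58 (edgeR adjusted p = 0.269), and within lane 8 the difference was 0.53. GENCODE M21 lists 13 transcripts of Vegfa, and counts per gene do not tell the VEGF-A isoforms apart.

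Vegfb encodes VEGF-B, known for its part in the heart and in fatty acid uptake by endothelium, and lies on chromosome 19 from 6982473 to 6987651. Its levels were 25.8, 33.9, 28.3 and 32.7 CPM in tumour replicates 1 to 4 and 30.9, 36.1 and 33.8 CPM in naive replicates 1 to 3. These values overlapped and were the most even of the family: the highest tumour library was 1.31 times the lowest. Vegfb averaged 30.2 ± 3.77 CPM in tumour (SD, n = 4) and 33.6 ± 2.61 CPM in naive skin (SD, n = 3), with a log2 fold change of -0.15 and a 95% interval of -0.62 to 0.31 (edgeR adjusted p = 0.795). That interval corresponds to a fold of 0.650 to 1.24, and its upper end lies below the lower end for Pgf.

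Vegfc encodes VEGF-C, the principal growth factor of lymphatic vessels, and lies on chromosome 8 from 54077606 to 54187096. It had 0, 169, 67 and 1 counts in tumour replicates 1 to 4, against 1, 0 and 0 counts in naive replicates 1 to 3. Tumour replicates 2 and 3 thus held 236 of the 237 tumour counts, at 2.77 and 1.07 CPM, and the other tumour libraries were at the level of the naive ones. The gene did not pass the filter and has no p-value in the comparison. The ratio of summed counts, scaled to library size, was 169, and 64.5 without tumour replicate 2. That ratio pools libraries that differ widely, and amplified reads without molecular identifiers are not independent molecules. No interval is given for it. In a fit with no filter the log2 fold change was 6.96 (edgeR adjusted p = 0.335).

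Figf encodes VEGF-D, the other ligand of the Flt4 product, and lies on chromosome X from 164373378 to 164402650, where it is annotated as Vegfd. It had 31, 0, 184 and 13 counts in tumour replicates 1 to 4 and 3, 181 and 118 counts in naive replicates 1 to 3. High and low libraries were found in both groups: tumour replicate 3 and naive replicates 2 and 3 stood at 2.94, 3.14 and 2.04 CPM, and the other 4 libraries were at 0 to 0.513 CPM. The mean was 0.917 ± 1.36 CPM in tumour (SD, n = 4) and 1.74 ± 1.57 CPM in naive skin (SD, n = 3). Its log2 fold change was -0.93 with a 95% interval of -5.33 to 3.47 (edgeR adjusted p = 0.874), so libraries of 1 group differed too widely to show a direction. The direction turned with lane as a term (0.53), and within lane 8 the difference was 0.52.

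Levels of different genes were compared per kilobase of annotated exons, as CPM per kilobase. On that scale the order in tumour was Pgf at 70.0 ± 17.1, Vegfb at 18.8 ± 2.35 and Vegfa at 17.1 ± 2.03 (SD, n = 4), and in naive skin Vegfb at 20.9 ± 1.62, Vegfa at 13.8 ± 4.02 and Pgf at 12.7 ± 0.745 (SD, n = 3). Pgf was thus the most abundant ligand transcript in every tumour library, at 54.5 to 94.2, and Vegfb in every naive library, at 19.2 to 22.5. The neighbours in that order overlapped for Vegfb and Vegfa in tumour and for Vegfa and Pgf in naive skin. Vegfc and Figf were at 1.31 or less in every library. The summed level of the family was 107 ± 16.9 CPM per kilobase in tumour (SD, n = 4) and 48.1 ± 5.81 in naive skin (SD, n = 3).

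Of that sum, Pgf made up 65.0 ± 5.31% in tumour (SD, n = 4) and 26.6 ± 3.68% in naive skin (SD, n = 3). Vegfb made up 17.9 ± 3.11% in tumour and 43.7 ± 2.81% in naive skin (SD, n = 4 and 3), and Vegfa made up 16.4 ± 3.91% in tumour and 28.3 ± 4.66% in naive skin (SD, n = 4 and 3). For each of these 3 genes the shares of the groups did not overlap, and the exact two-sided permutation test over libraries gave p = 0.0571, the smallest that 4 libraries against 3 allow, and 0.0952 after adjustment over the 5 members. A share falls where another member takes more, so the shares of Vegfb and Vegfa do not show a change of their own levels. Within a library Pgf was 2.75 to 5.78 times Vegfa in tumour and 0.684 to 1.16 times Vegfa in naive skin, per kilobase. The ratio of Pgf to Vegfb was 3.10 to 5.34 in tumour and 0.560 to 0.699 in naive skin. Both ratios had an exact two-sided permutation p of 0.0571 (0.0857 adjusted over 3 ratios), and that of Vegfa to Vegfb had 0.114.

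**Figure D2:**
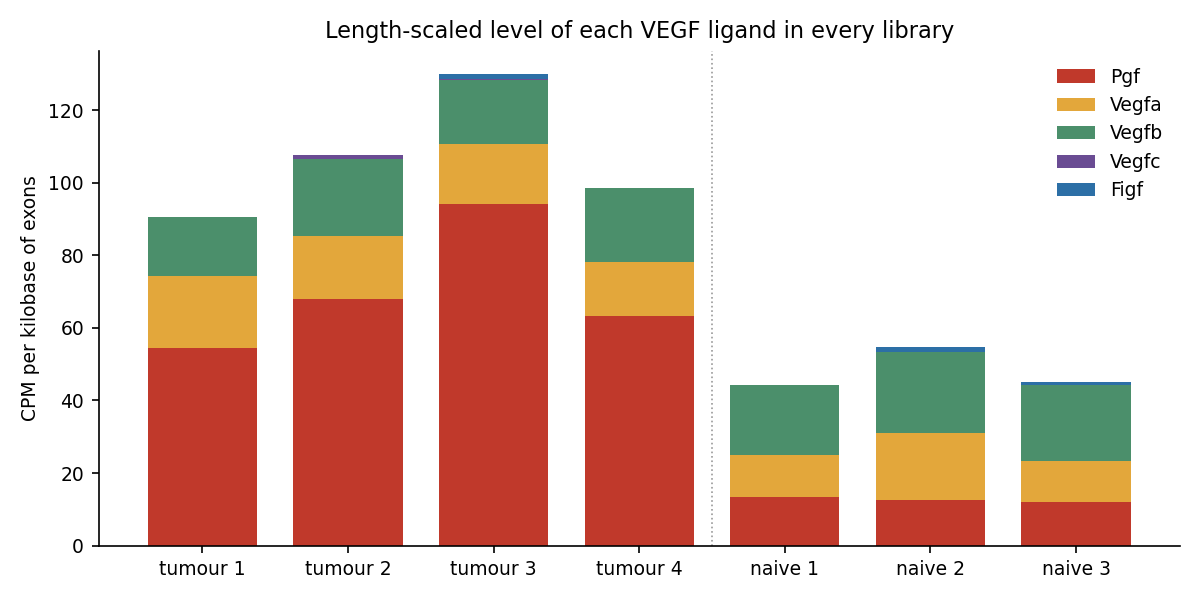
Stacked level of the 5 ligand transcripts in CPM per kilobase of exons (vertical axis) in each tumour library (left) and each naive library (right). The Pgf segment is 54.5 to 94.2 in tumour and 12.0 to 13.4 in naive libraries, and the segments of Vegfc and Figf are thin or not visible.

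The receptors give the other side of the ligands. Nrp1, a co-receptor for VEGF-A and placental growth factor, stood at 24.6 to 31.3 CPM in the 4 tumour libraries and at 0.0172 to 0.0519 CPM in the 3 naive libraries (edgeR adjusted p = 0.000322). Its naive values were 1, 1 and 3 counts, at or below the floor of 3 counts. Nrp1 is also in the list of blood endothelial markers given below, and the part of other cell types in its level was not tested. Flt1, the receptor gene for placental growth factor and VEGF-B, was low and uneven, with 4.19, 0.0328, 0.718 and 15.6 CPM in tumour replicates 1 to 4 and 0, 0.330 and 0 CPM in naive replicates 1 to 3 (edgeR adjusted p = 0.315). Kdr, Flt4 and Nrp2 were abundant and did not pass, with log2 fold changes of -0.68, -0.07 and 0.63 (edgeR adjusted p = 0.160, 0.897 and 0.157). The direction for Flt4 turned with upper-quartile scaling, to 0.00416.

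Lists of pathway genes were set beside the ligands. Over all genes tested 0.899% were called higher and 0.803% lower. Of 8 genes of VEGF-C and VEGF-D maturation 6 were tested, 1 rose and 0 fell. That gene was Ctsd, which encodes cathepsin D, a lysosomal protease that can cleave human VEGF-C and VEGF-D: it was at 1131 ± 284 CPM in tumour (SD, n = 4) and 562 ± 30.1 CPM in naive skin (SD, n = 3; edgeR adjusted p = 0.0412). The untested genes were Ccbe1, a cofactor of VEGF-C cleavage, with at most 1.84 CPM in a library, and the plasminogen gene Plg, with counts in naive replicate 2 only. Of the 4 genes of the related platelet-derived growth factors 0 passed; Pdgfa had a log2 fold change of -0.36 and Pdgfb of 0.76 (edgeR adjusted p = 0.579 and 0.451). Of 24 tested genes of signal transduction below the VEGF receptors 0 passed, beside 1.7% of all genes tested. Their median log2 fold change was -0.02, beside 0.04 over all genes tested. The most abundant of them, the small GTPase gene Rac1 and the focal adhesion gene Pxn, had values of -0.03 and 0.14.

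Genes that VEGF-A is known to induce in endothelium stood lower in part. Of 8 tested members 3 fell and 0 rose, with a median log2 fold change of -1.39, beside 0.803% lower and a median of 0.04 over all genes tested. The list was chosen with earlier results of these data known, so that comparison is a description. None of the 3 calls was kept without naive replicate 1. The 1 tested member with a positive log2 fold change was Angpt2, at 0.66, and it did not pass (edgeR adjusted p = 0.096). It was at 355, 367, 499 and 439 CPM in tumour replicates 1 to 4, against 234, 313 and 241 CPM in naive replicates 1 to 3. Dll4, a Notch ligand gene, was at 48.4 ± 11.2 CPM in tumour (SD, n = 4) and 220 ± 28.8 CPM in naive skin (SD, n = 3), a log2 fold change of -2.18 (edgeR adjusted p = 0.00696). The secreted metalloprotease gene Adamts1 had a log2 fold change of -1.18 (edgeR adjusted p = 0.0218). The orphan nuclear receptor gene Nr4a1 was at 1256 ± 439.7 CPM in tumour (SD, n = 4) and 3800 ± 977 CPM in naive skin (SD, n = 3; edgeR adjusted p = 0.036). Esm1 and Apln, known from endothelial tip cells, had 0 naive counts and at most 2.32 and 3.14 CPM in a tumour library and were not tested.

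Antagonists of VEGF and matrix genes that bind or hold it formed a further list. Of 11 tested members 1 rose, 1 fell and 9 did not pass, beside 0.899% higher and 0.803% lower over all genes tested. Thbs1, which encodes the angiogenesis inhibitor thrombospondin-1, stood at 174, 103, 324 and 453 CPM in tumour replicates 1 to 4, against 34.3, 51.5 and 54.8 CPM in naive replicates 1 to 3 (log2 fold change 2.49, edgeR adjusted p = 0.0454). Timp3, whose product blocks binding of VEGF-A to the Kdr product, was at 1898 ± 359 CPM in tumour (SD, n = 4) and 3530 ± 336 CPM in naive skin (SD, n = 3; log2 fold change -0.90, edgeR adjusted p = 0.0426). Thbs1 is also made by fibroblasts, whose markers summed to 1783 to 18312 CPM in tumour and 646 to 1223 CPM in naive libraries; their part in the result was not tested.

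Hypoxia is known to raise Vegfa transcription. Of 12 tested hypoxia response genes 0 passed, beside 1.7% of all genes tested, so 0 calls in so short a list say little. Their median log2 fold change was -0.19. The most abundant, the lactate dehydrogenase gene Ldha and the stress gene Ndrg1, had 0.23 and -0.29 (edgeR adjusted p = 0.428 and 0.399). Of 12 regulators of transcription or decay of the ligand transcripts 0 passed, beside the same share of 1.7%, with a median of -0.34. Among these Stat3 and Zfp36, whose product destabilizes Vegfa mRNA, had log2 fold changes of -0.52 and -0.69 (edgeR adjusted p = 0.161 and 0.172). At an unadjusted p under 0.05 there were 2278 genes over the whole table.

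Over the 8 lists, 82 of 87 genes in the table were tested, 3 rose and 4 fell, beside 0.899% higher and 0.803% lower over all genes tested. Of these 7 genes, Nrp1 alone kept its call without naive replicate 1, Nrp1 and Dll4 kept it without naive replicate 2 or 3, 3 genes kept it without tumour replicate 1 or 4, and 5 without tumour replicate 2 or 3. With sex as a term Nrp1 and Nr4a1 kept the call, and with lane as a term 0 of the 7 did; the direction of all 7 was kept in each of the 18 alternatives.

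**Figure D3:**
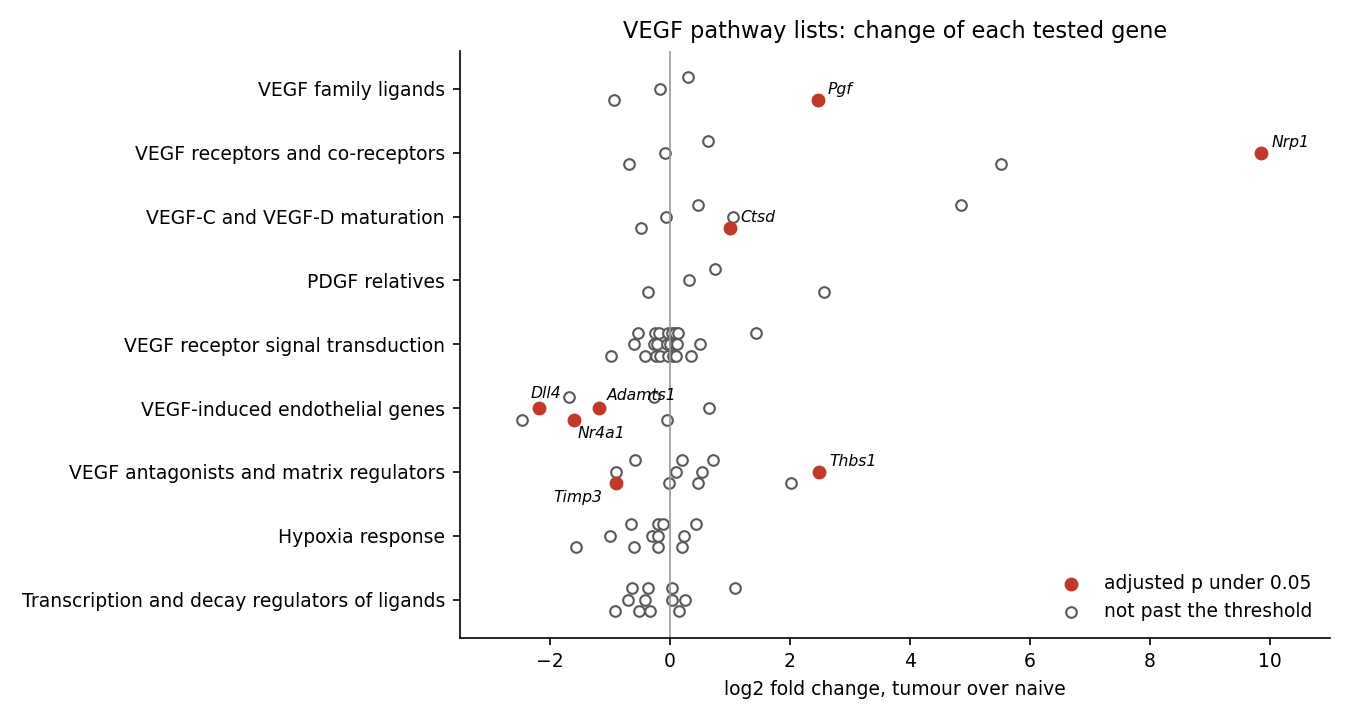
Log2 fold change, tumour over naive (horizontal axis), of each tested gene in the ligand list and the 8 pathway lists (rows); filled red points passed the edgeR test at an adjusted p of 0.05 and open points did not. The named points are Pgf, Nrp1, Ctsd and Thbs1 on the right and Dll4, Nr4a1, Adamts1 and Timp3 on the left.

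The summed markers of fibroblasts, myeloid cells, melanocytes and blood endothelium were higher in every tumour library than in every naive library, and those of keratinocytes and mural cells overlapped between the groups. Abundant genes in 2 of these sums were also present in naive libraries. Mrc1 and Cd14 were at 50.9 to 73.2 and 76.4 to 105.5 CPM there, against 140 to 220 and 89.5 to 164 CPM in tumour. Plvap and Aqp1 were at 323 to 459 and 182 to 349 CPM there, against 556 to 704 and 522 to 746 CPM in tumour. The myeloid and blood endothelial sums thus do not measure those cell types alone. Calls among markers stand beside 0.899% of all genes tested called higher and 0.803% lower. Among the 10 fibroblast markers, whose sums are given above, Pdgfra and Mfap5 rose. Of 11 myeloid markers 9 were tested and 4 rose, Mrc1, Emr1, Lyz2 and C1qc, with sums of 361 to 636 CPM in tumour and 166 to 227 CPM in naive libraries. Ptprc, Emr1 and Itgam were at 0 in all naive libraries. In tumour replicates 1 to 4 Ptprc was at 0, 0.0492, 0 and 6.32 CPM and Itgam at 0.199, 0, 0 and 8.37 CPM. These 2 genes were thus near 0 in tumour as well, except in replicate 4. Of 9 melanocyte and melanoma markers 5 were tested and 2 rose, Dct and Sox10, with sums of 12.2 to 119 CPM in tumour and 1.20 to 5.42 CPM in naive libraries. Mlana was at 0 in all naive libraries and at 0, 1.46, 0.463 and 1.60 CPM in tumour replicates 1 to 4. Of 12 blood endothelial markers 3 rose, Nrp1, Selp and Aqp1, with sums of 1510 to 1728 CPM in tumour and 826 to 1110 CPM in naive libraries. Emcn of the same list was at 72.9 to 132 CPM in tumour and 179.6 to 235 CPM in naive libraries and did not pass (log2 fold change -1.01, edgeR adjusted p = 0.0673). Apart from Nrp1, each of these marker calls was lost without some single library. Keratinocyte sums were 37.3 to 129 CPM in tumour and 3.42 to 63.8 CPM in naive libraries, and mural sums 16.8 to 85.2 CPM in tumour and 22.3 to 36.4 CPM in naive libraries. Of 7 tested keratinocyte and 3 tested mural markers 0 passed. In the most abundant of them, Krt14, Krt10, Kcnj8 and Cspg4, the tumour means were 28.1, 23.9, 20.9 and 12.4 CPM, and the naive means 13.3, 3.17, 23.9 and 0.0116 CPM.

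Within the tumour group, Pgf was highest in replicate 3, as was the keratinocyte sum. The fibroblast, myeloid, melanocyte, blood endothelial and mural sums were highest in replicate 4. Pgf was lowest in replicate 1, as were the myeloid, melanocyte and mural sums. Without tumour replicate 4 the log2 fold change of Pgf was 2.52 (edgeR adjusted p = 0.014). The part of other cell types in the Pgf level was not tested beyond these values, and in bulk RNA a change in the number of cells that express a gene and a change in RNA per cell cannot be told apart.

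**Figure D4:**
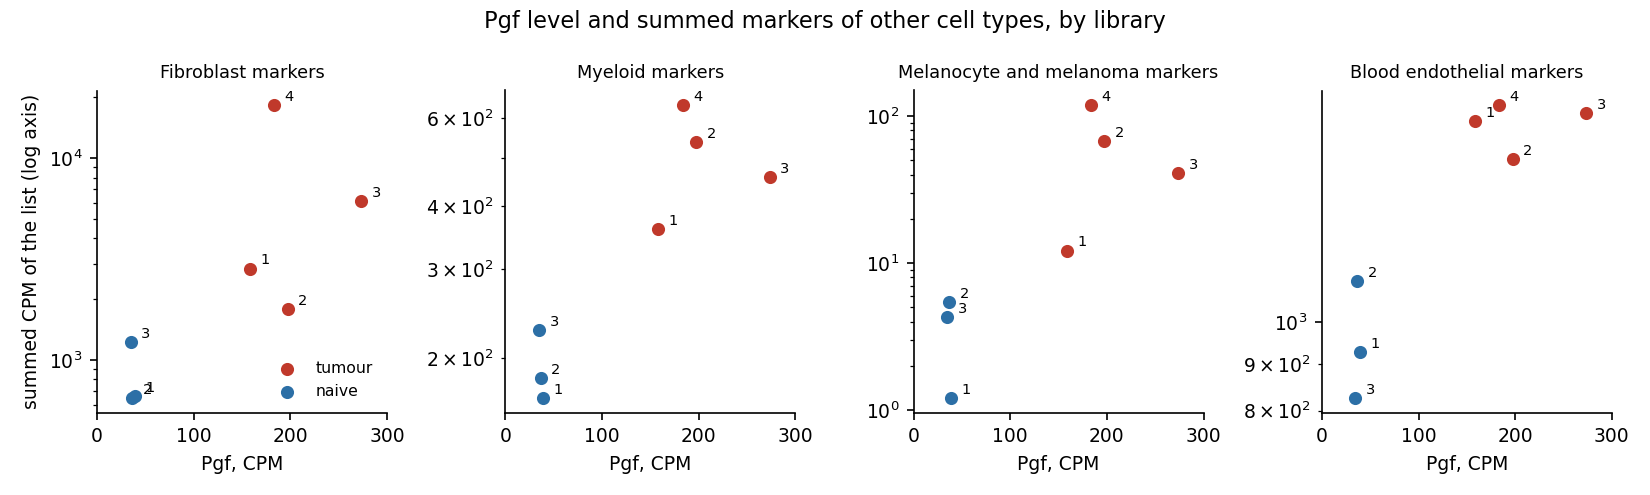
Summed CPM of 4 marker lists (vertical log axes) against the Pgf level in CPM (horizontal axis) in the tumour (red) and naive (blue) libraries; digits are replicate numbers. Tumour replicate 4 has the highest marker sums and tumour replicate 3 the highest Pgf.

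The genes whose levels followed Pgf most closely across the 7 libraries were Wdfy1, Emid1, Clta, Ckb and Ypel2, by Pearson's correlation of log2 CPM with 7174 other protein-coding genes of at least 4 mean log2 CPM. The coefficients were 0.985 to 0.992 over 7 libraries that fall into 2 groups, and are a description. Ckb, the brain-type creatine kinase gene, was at 326 ± 23.6 CPM in tumour (SD, n = 4) and 124 ± 13.7 CPM in naive skin (SD, n = 3). Emid1, which encodes an extracellular protein with an EMI domain, was at 502 ± 83.9 CPM in tumour (SD, n = 4) and 209 ± 11.8 CPM in naive skin (SD, n = 3). Clta, a clathrin light chain gene, was the exception that did not pass the test (edgeR adjusted p = 0.118). For Vegfa the closest genes were Nup62, Atp5a1, Commd10, Gcap14 and Yipf6 (at least 0.929), and for Vegfb they were Tep1, Gpr56, Srp72, Btrc and Snx25 (at least 0.919); none of these 10 passed the test.

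**Figure D5:**
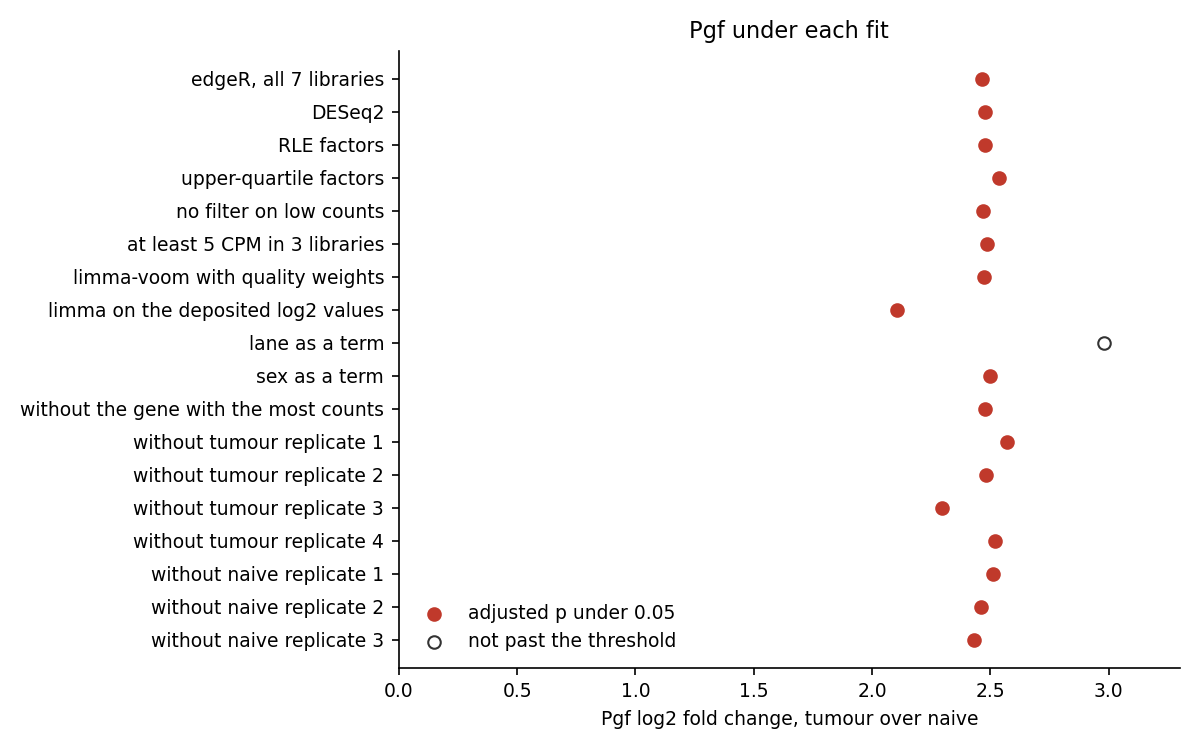
Log2 fold change of Pgf, tumour over naive (horizontal axis), in the edgeR comparison of all 7 libraries and in 17 of the 18 alternative fits (rows; the replicate block, which also lost the call, is not plotted); filled points passed the threshold of 0.05 and open points did not. The values lie between 2.11 and 2.98, and the open point among those plotted is the fit with lane as a term.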

How the data were processed

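Lymphatic endothelial RNA from 4 BPC melanoma and 3 naive ear skin libraries was analysed. RNA came from the Qiagen RNeasy Micro kit and cDNA from the Takara SMART-Seq v4 kit, per the labels' protocols. The authors deposited whole-number counts per gene and, in a second table, log2 normalized values. Trimmomatic 0.38 and mm10 are named in the submitters' processing notes; aligner, counter, annotation and normalization were not given in the sources used here.

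From the deposited counts, 25 of 26608 entries whose symbol had become a date (0.174% to 0.236% of counts) were left out. Genes were filtered with filterByExpr, scaled by TMM (factors 0.924 to 1.13) and compared with glmQLFit and glmQLFTest in edgeR 4.0.16 (R 4.3.3), with Benjamini-Hochberg adjustment over 13453 genes. The fit was also run on simulated counts in which every gene had the same dispersion. That run checks the code and does not give the error rates in these data. CPM use TMM-scaled library sizes. SE is the log2 fold change divided by the square root of F, and intervals use the residual plus the prior degrees of freedom of the fit. The deposited log2 values entered 1 alternative.

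Named were the members, the 5 receptors, up to 5 called genes per list or else the 2 most abundant, and the 5 most similar genes per member. Members and lists were chosen with earlier results of these data known. Replicate numbers did not pair libraries (correlations of deviations -0.0367 to -0.00641). DESeq2 1.42.0, limma 3.58.1, other scalings, filters, lane, sex and leaving out each library were tried. Of the genes, 92.1% matched 1 GENCODE M21 gene. Sequences are from RefSeq.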

Additional observations from a re-analysis of the deposited data

Results flagged for a closer look

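Of 66 values examined for a tumour library far from the other 3 (ligand levels and shares, named genes and marker sums), 3 were singled out by Dixon's ratio, and chance alone singles out about 1 in 20 groups. Kdr was at 1073 CPM in tumour replicate 1, against 635 to 682 CPM in the other tumour libraries. Timp3 was at 1365 CPM in tumour replicate 4, against 2010 to 2128 CPM in the others. The mural marker gene Cspg4 was at 44.4 CPM in tumour replicate 4, against 0.541 to 4.04 CPM in the others. No ligand level or share was singled out in this way.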

How the results depend on the processing

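Pgf kept its direction in all 18 alternatives and its call in 16, with log2 fold changes of 2.11 to 2.98; the call was lost in the lane fit (2.98) and under the replicate block (2.48, adjusted p = 0.07). Same-numbered libraries did not deviate together, so the replicate block has no basis beyond the number; with it 3 genes were called higher and 0 lower in tumour, and 1 of the pathway genes. Vegfa ranged from 0.19 to 0.58 and Vegfb from -0.25 to -0.08, without a call in any of the 18. Figf, absent from the filter of 5 CPM, ranged from -2.83 to 0.53, the last with lane as a term. Vegfc could be fitted in 5 alternatives that kept it, with log2 fold changes of 6.50 to 8.86 and no call.

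The counts over all genes, 121 higher and 108 lower, were 950 and 568 with DESeq2, 190 and 169 with the filter of 5 CPM, 192 and 164 with limma on the deposited log2 values, 0 and 0 with lane as a term and 6 and 6 with sex as a term; limma-voom called 170 lower. With lane as a term 1169 genes had an unadjusted p under 0.05. Without 1 library the counts ranged from 6 to 105 higher and from 1 to 88 lower, both lowest without naive replicate 1. The 7 calls in the pathway lists became 23 with DESeq2, 0 with lane and 2 with sex as a term, and 1 to 5 without 1 library. The cause of these shifts was not tested.

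Shares of the family sum kept their direction for all 5 members with summed counts, with the longest transcript and without any 1 library. Among 49 other named genes, 692 of 880 alternative values kept direction and call, 169 lost the call, 7 gained it and 12 turned direction, none of them a called gene. These were Flt4 (0.00416 with upper-quartile scaling and -0.21 to 0.16 without 1 library), Rac1 (0.043 with upper-quartile scaling, 0.057 with the replicate block, 0.16 with lane and -0.083 to 0.061 without 1 library), Pxn (-0.036 with lane), Ndrg1 (0.096 with lane) and Kcnj8 (0.26 with lane and -0.73 to 0.13 without 1 library). RLE and upper-quartile factors moved the median gene by 0.012 and 0.070. Few libraries and counts near the floor limit what can be said of Vegfc and Figf.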

Other observations

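The nearest tested genes on either side of each tested ligand gene were looked up as context. Beside Pgf, Eif2b2, a translation initiation factor subunit gene that starts 41691 bases away, was at 77.8 ± 4.64 CPM in tumour (SD, n = 4) and 45.1 ± 6.75 CPM in naive skin (SD, n = 3), a log2 fold change of 0.79 that did not pass the test (edgeR adjusted p = 0.0597). On the other side, 15371 bases away, Rps6kl1 had 0.59 (edgeR adjusted p = 0.849). The closest neighbours of Vegfb, Dnajc4 at 260 and Fkbp2 at 1972 bases, had log2 fold changes of -0.11 and -0.03, and Pir, 367 bases from Figf, had -0.04; none passed. Around Vegfa, Mrps18a and Mrpl14 had 0.28 and 0.19 and did not pass.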
